A study of Rattus norvegicus with 18 samples.

Results

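The kallikrein-kinin system was represented on the arrays by 5 of the 6 genes looked for, out of 10969 genes with a probe set of a single symbol. A probe set is a set of short oligonucleotides read together as 1 signal. The genes were Kng2, Klk1, Klk1c2, Bdkrb1 and Bdkrb2, with 7 probe sets whose platform annotation gave that symbol alone, all on the first array type (A). Kng1 was covered only by a probe set that also lists Kng2 and Kng2l1, which is described apart. The rule goes by symbol and uses no signal, but the genes were picked with earlier results of these data known. Kidneys were compared between a congenic strain, in which part of rat chromosome 9 with a blood pressure quantitative trait locus comes from Dahl salt-resistant (R) rats, and Dahl salt-sensitive (S) rats, whose genome the congenic otherwise has. There were 3 congenic and 3 Dahl S samples, and RNA of each went onto 3 array types. Diet, age and sex are not in the labels, nor do they state that each sample is 1 animal, and a p-value here reflects sample-to-sample spread that could be technical. None of the 5 genes lies on chromosome 9 in the GRCr8 assembly table: Klk1 and Klk1c2 are on chromosome 1, the receptor genes on chromosome 6 and Kng2 on chromosome 11.

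Kallikreins are serine proteases that cut kininogens and release kinins, short peptides that widen vessels and promote salt excretion. In the kidney, tissue kallikrein is made mainly in the connecting tubule and secreted into the tubular fluid, while most circulating kininogen comes from the liver. Kinins act on the B2 receptor, which is present without a stimulus, and on the B1 receptor, which is induced by tissue injury. Peptidases such as angiotensin-converting enzyme and neprilysin break kinins down within moments. The rat has, beside Kng1, the T-kininogen gene Kng2, whose product is an acute-phase protein of plasma. It also has a large cluster of near-identical kallikrein genes on chromosome 1, so a probe set for 1 of them may pick up others.

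The closeness of these copies shows in their promoters, and 2 pairs are printed to show stretches that neighbouring copies share within 250 bases of their starts. The 250 bases before each annotated start are given 5′ to 3′ from RefSeq on the GRCr8 build, with the longest run shared by the pair in capitals. Kng2 (chr11:91418220-91418469, plus strand) and Kng1 (chr11:91340149-91340398, minus strand) share a run of 87 bases, at different distances from their starts. Klk1 (chr1:103778902-103779151, plus strand) and Klk1c2 (chr1:103633001-103633250, minus strand) share a run of 20 bases.
Kng2: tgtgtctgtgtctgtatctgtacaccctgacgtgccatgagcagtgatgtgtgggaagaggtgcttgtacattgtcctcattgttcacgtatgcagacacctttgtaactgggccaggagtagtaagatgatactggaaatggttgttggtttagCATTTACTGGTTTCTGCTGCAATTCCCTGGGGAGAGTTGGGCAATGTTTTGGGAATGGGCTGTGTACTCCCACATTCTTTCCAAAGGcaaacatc
Kng1: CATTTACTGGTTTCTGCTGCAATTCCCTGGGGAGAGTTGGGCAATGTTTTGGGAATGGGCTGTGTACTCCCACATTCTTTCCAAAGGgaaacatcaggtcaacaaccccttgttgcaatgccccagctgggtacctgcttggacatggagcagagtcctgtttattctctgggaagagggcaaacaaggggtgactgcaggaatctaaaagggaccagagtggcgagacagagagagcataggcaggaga
Klk1: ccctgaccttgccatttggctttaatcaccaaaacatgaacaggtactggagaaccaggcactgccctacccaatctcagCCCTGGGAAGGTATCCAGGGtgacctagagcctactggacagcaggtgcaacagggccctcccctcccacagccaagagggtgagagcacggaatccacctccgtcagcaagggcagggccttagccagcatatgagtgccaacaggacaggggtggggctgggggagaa
Klk1c2: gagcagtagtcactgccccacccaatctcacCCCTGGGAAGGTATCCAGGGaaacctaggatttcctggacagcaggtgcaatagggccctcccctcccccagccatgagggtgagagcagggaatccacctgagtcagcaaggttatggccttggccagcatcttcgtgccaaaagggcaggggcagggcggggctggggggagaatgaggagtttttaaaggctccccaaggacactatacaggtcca

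In the best local alignment the Kng2 and Kng1 windows matched at 94 of 95 positions (98.9%), and Kng2 matched the first of 2 windows of Kng2l1 at 109 of 115 (94.8%). The Klk1 window matched Klk1c2 at 168 of 200 positions (84.0%) and Klk1b3 at 189 of 216 (87.5%). These alignments cover different lengths of the windows, so their percentages cannot be ranked. The letters CTGGGAA, the core of elements described in acute-phase gene promoters, were searched on both strands of these windows, a motif chosen with the sequences in view. They occurred once in each window of Kng1, Klk1, Klk1c2, Klk1b3 and Kng2l1, whose 2 windows overlap and hold the same site. They were not in the window of Kng2, and 9.56% of 33469 windows of the same length hold them. The windows of related copies are alike, so these occurrences are not independent of each other. Set beside that share, they are no test of enrichment. The run shared by Kng1 and Kng2 ends 164 bases before the Kng1 start but 9 bases before the Kng2 start. A counterpart of the Kng1 motif, which lies 82 to 76 bases before its start, would fall past the Kng2 start, outside the window searched. The search therefore does not show that Kng2 lacks the motif. In Klk1 and Klk1c2 the letters lie within the run in capitals. Promoters say nothing about how alike the transcripts are, and probe sequences were not used here.

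The samples numbered 1 stood apart in both strains. On type A their median signals were 45.9 in congenic and 45.5 in Dahl S, against 34.8 to 39.4 in the other samples. Their deviations from their strain means moved together over the tested probe sets (r = 0.53, 0.36 and 0.49 on types A, B and C). Values without both of these samples are therefore given beside the results. Type A probe sets averaging under 21.2 were not tested, and this value is called the filter level. The kidney label was checked against its markers: all 8 defining kidney genes on the arrays were tested, among them the phosphate cotransporter Slc34a1, with signals of 11003 to 16451 in congenic and 10807 to 13441 in Dahl S samples, and the androgen-regulated proximal tubule gene Kap, with 12552 to 15730 in congenic and 11013 to 12069 in Dahl S samples. Slc12a1, also among the 8, read 11.4 in congenic sample 2, under the filter level, against 72.9 to 123.9 in the other samples. The most defining liver gene, albumin (Alb), was below the filter level in 5 of 6 samples. Other liver genes were not all low: 10 of the 16 on the arrays were tested, and Apoc3 read 262.2 to 300.1 over the 6 samples. Alb and Slc12a1 were named outside the rule for named genes given below.

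No kallikrein-kinin probe set differed between the strains at the adjusted threshold. Of the 7 probe sets, 4 (of 3 genes) passed the signal filter and were tested, and limma called 0 of them at an adjusted p of 0.05, as it called 0.0% of the 15721 probe sets tested on all arrays. At an unadjusted p under 0.05 there was 1 of the 4, Kng2, against a background of 2.49% (1.32% lower and 1.17% higher in congenic samples). The congenic and Dahl S values overlapped in every one of the 7, where 7.08% of all tested probe sets were without overlap (3.49% lower and 3.59% higher in congenic samples). With 4 probe sets, 2 of them for the same gene, these shares say little about the system as a whole.

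**Figure D1:**
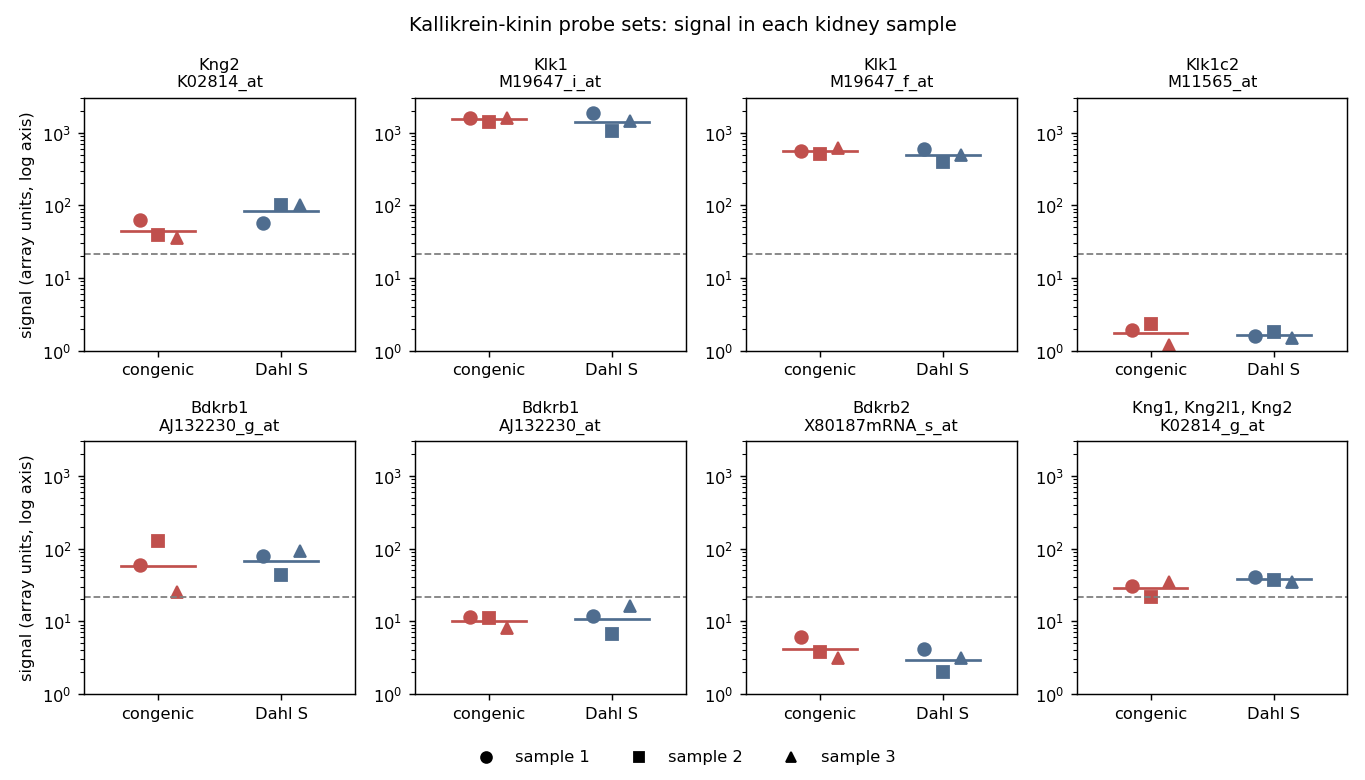
Signal of the 7 probe sets of Kng2, Klk1, Klk1c2, Bdkrb1 and Bdkrb2 and of the probe set shared by 3 kininogens, in array units on a log axis, for congenic samples (left, red) and Dahl S samples (right, blue). Symbols mark sample numbers, short lines the geometric means and the dashed line the filter level of 21.2. Kng2 in congenic and Dahl S sample 1 sits at nearly the same height, while samples 2 and 3 are apart.

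The kininogen signal read lower in the congenic kidneys, in samples 2 and 3 but not in sample 1. Kng2 (probe set K02814_at) had signals of 62.0, 39.0 and 35.2 in congenic samples 1, 2 and 3, against 56.4, 102.3 and 100 in Dahl S samples 1, 2 and 3. Congenic samples 2 and 3 were the lowest, Dahl S samples 2 and 3 the highest, and the samples numbered 1 lay between with the congenic one slightly above. The means were 45.4 ± 14.5 in congenic and 86.2 ± 25.9 in Dahl S samples (SD, n = 3 each). The log2 difference was -0.92 (SE 0.37, 95% interval -1.78 to -0.07), or 1.89-fold lower, with a limma adjusted p = 0.9997. Without both samples numbered 1 the log2 difference was -1.45 (limma adjusted p = 0.9994). With 1 sample left out at a time it lay between -1.20 and -0.76, and the unadjusted p was above 0.05 without congenic sample 2 or 3 or Dahl S sample 2 or 3. In each of these, 1 strain is down to 2 samples. In RNA of whole kidney, fewer cells of a type and less RNA per cell cannot be told apart.

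The neighbouring kininogen probe set gave a smaller difference in the same direction. Probe set K02814_g_at, designed on the same transcript sequence and annotated to Kng1, Kng2l1 and Kng2, had signals of 30.3, 21.8 and 34.2 in congenic samples, against 40.9, 37.4 and 35.1 in Dahl S samples. All 3 congenic values were below all 3 Dahl S values, although congenic sample 3 and Dahl S sample 3 differed by less than 1 unit. The log2 difference was -0.42 (SE 0.40, limma adjusted p = 0.9997), with a 95% interval from -1.33 to 0.50. The third kininogen probe set, rc_AA924618_at for Kng2l1 on array type B, was not tested because its mean was under the filter. Its signals were 60.5, 15.4 and 11 in congenic samples, against 45.1, 5.9 and 30.0 in Dahl S samples, and in both strains sample 1 was the highest. The 3 kininogen probe sets thus did not share 1 pattern over the samples.

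Genes of the acute phase and of tubular injury were read beside Kng2 because T-kininogen is itself an acute-phase protein. This list, which holds both kinds of gene, was chosen with earlier results of these data known. Of 9 tested genes 8 were lower in congenic samples (median log2 difference -0.48, against -0.01 over 8168 tested genes, of which 51.1% were lower and 48.9% higher). None was called by limma, and 4 had an unadjusted p under 0.05, against 2.35% of all tested genes. All 4 were lower: Clu, Spp1, the tubular injury marker Lcn2 and the copper carrier Cp. Clu, the secreted chaperone clusterin, had signals of 453.4 to 604.9 in congenic samples, against 987.6 to 1426.0 in Dahl S samples. Spp1, the matrix protein osteopontin, had 1199.6 to 1807.7 in congenic samples, against 2485.2 to 3747.4 in Dahl S samples. For both genes Dahl S sample 2, which had the highest Kng2 signal, was the highest of all 6. Dahl S sample 1, with Kng2 at 56.4, below the 62.0 of congenic sample 1, had Clu at 1051.2 and Spp1 at 2485.2, above every congenic value. In Dahl S sample 3, with Kng2 at 100, Clu was at 987.6, the lowest of the Dahl S samples, and Spp1 at 2618.3. Kng2, Clu and Spp1 thus did not rank the samples alike. A2m, the classical acute-phase macroglobulin of the rat, differed by 0.03 (SE 0.22), and the acute-phase plasma proteins haptoglobin (Hp) and orosomucoid (Orm1) by -0.20 (SE 0.72) and -0.21 (SE 0.48). The choice to name these 3 genes, Lcn2 and Cp was made with their values in view. The summed signal of the list was 2693 to 3112 in congenic and 4625 to 6355 in Dahl S samples, most of it from Spp1 and Clu. Without these 2 genes the sums were 741 to 1040 in congenic and 1088 to 1209 in Dahl S samples. The gap was then 48.6 units, between congenic sample 2 and Dahl S sample 1. These sums include the genes of the list that were not tested. Whether the genes of this list have a part in the Kng2 difference was not tested.

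Liver secretory genes were read as markers of plasma protein transcripts. Of 10 tested, 6 were lower and 4 higher in congenic samples (median -0.21). Limma called 0 and, against 2.35% of all tested genes, 1 had an unadjusted p under 0.05. That was Fga, the fibrinogen alpha chain, with signals of 41.3, 54.9 and 49.5 in congenic samples, against 76.2, 94.0 and 108.7 in Dahl S samples (log2 difference -0.93, SE 0.28, limma adjusted p = 0.9997). Its second tested probe set read -1.02 (SE 0.41). The other fibrinogen chains, named after their values were seen, did not share this: Fgg read 0.18 (SE 0.46), and Fgb was below the filter level in all 6 samples. Apoc3, an apolipoprotein and the brightest of the list, had 289.3 to 298.1 in congenic and 262.2 to 300.1 in Dahl S samples. The summed signal of the list overlapped between the strains, at 673 to 844 in congenic and 752 to 869 in Dahl S samples. Their part in the Kng2 difference was not tested.

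Among the enzymes, Klk1, the tissue kallikrein gene, had nearly the same signal in both strains. Probe set M19647_i_at read 1589.6, 1391.5 and 1578.2 in congenic samples, against 1887.6, 1036.8 and 1437.7 in Dahl S samples. The Dahl S samples spanned the congenic ones on both sides, sample 1 above and sample 2 below. The log2 difference was 0.10 (SE 0.21, 95% interval -0.38 to 0.59, limma adjusted p = 0.9997). A p of this size does not show that the strains are equal.

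The second Klk1 probe set, M19647_f_at, whose suffix marks probes shared with the gene family, read 566.6, 514.8 and 623.7 in congenic samples, against 603.9, 397.9 and 484.7 in Dahl S samples. Its log2 difference was 0.21 (SE 0.18, 95% interval -0.21 to 0.64, limma adjusted p = 0.9997). In both Klk1 probe sets the lowest of the 6 samples was Dahl S sample 2. Without it, the first probe set gave -0.12 and the second 0.07. Without both samples numbered 1 they gave 0.28 and 0.37. Relative to the mean of the 6 samples the 2 probe sets differed from each other by 0.11 log2 units (root mean square over the 6 samples).

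Klk1c2 encodes tonin, a kallikrein known in the rat for releasing angiotensin II directly from its precursor. Its probe set M11565_at had signals of 1.9, 2.3 and 1.2 in congenic samples, against 1.6, 1.8 and 1.5 in Dahl S samples. All 6 were under the floor of 3.1 to which low values were raised on type A, so no difference was estimated.

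Other kallikreins of the chromosome 1 cluster were read beside Klk1. Klk1b3, a kallikrein that carries the older name nerve growth factor gamma subunit, read 337.2, 276.4 and 349.0 in congenic samples, against 359.7, 243.1 and 257.5 in Dahl S samples (log2 difference 0.18, SE 0.20). Its centred values differed from those of the first Klk1 probe set by 0.13 (root mean square over 6 samples). Of the list of kallikrein and kininogen relatives, 10 genes were on the arrays and 4 were tested, with a median of -0.18. Limma called 0 of the 4, and 1 had an unadjusted p under 0.05, against 2.35% of all tested genes.

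That 1 gene was Klk1c9, a submandibular gland kallikrein. Its probe set M11566_f_at read 38.9, 35.1 and 70.3 in congenic samples, against 81.2, 73.0 and 89.9 in Dahl S samples. The strains did not overlap, by a margin of under 3 units between congenic sample 3 and Dahl S sample 2. The log2 difference was -0.82 (SE 0.35, 95% interval -1.62 to -0.03), with a limma adjusted p = 0.9997, and without both samples numbered 1 it was -0.71, with an unadjusted p above 0.05. The suffix of this probe set marks it as one shared with the family, so which kallikrein transcript it measured is uncertain.

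Klk1c12 had 2 tested probe sets that read -0.34 (SE 0.32) and -0.06 (SE 0.23), and the family probe set of Klk1c3 read -0.02 (SE 0.26). Klk8, Klk1c8 and Klk1c10 were below the filter level in all 6 samples. Klkb1, plasma prekallikrein, had 3.1 to 8.5 in congenic and 2.6 to 10 in Dahl S samples, also below it. Klk6, a kallikrein-related peptidase of the nervous system, was not tested, and this gene was chosen after its values were seen. It read 22.5, 29.7 and 33.6 in congenic samples, against 16.6, 12 and 9.5 in Dahl S samples. All 3 Dahl S values were under the filter level, so how large its difference is stays uncertain.

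**Figure D2:**
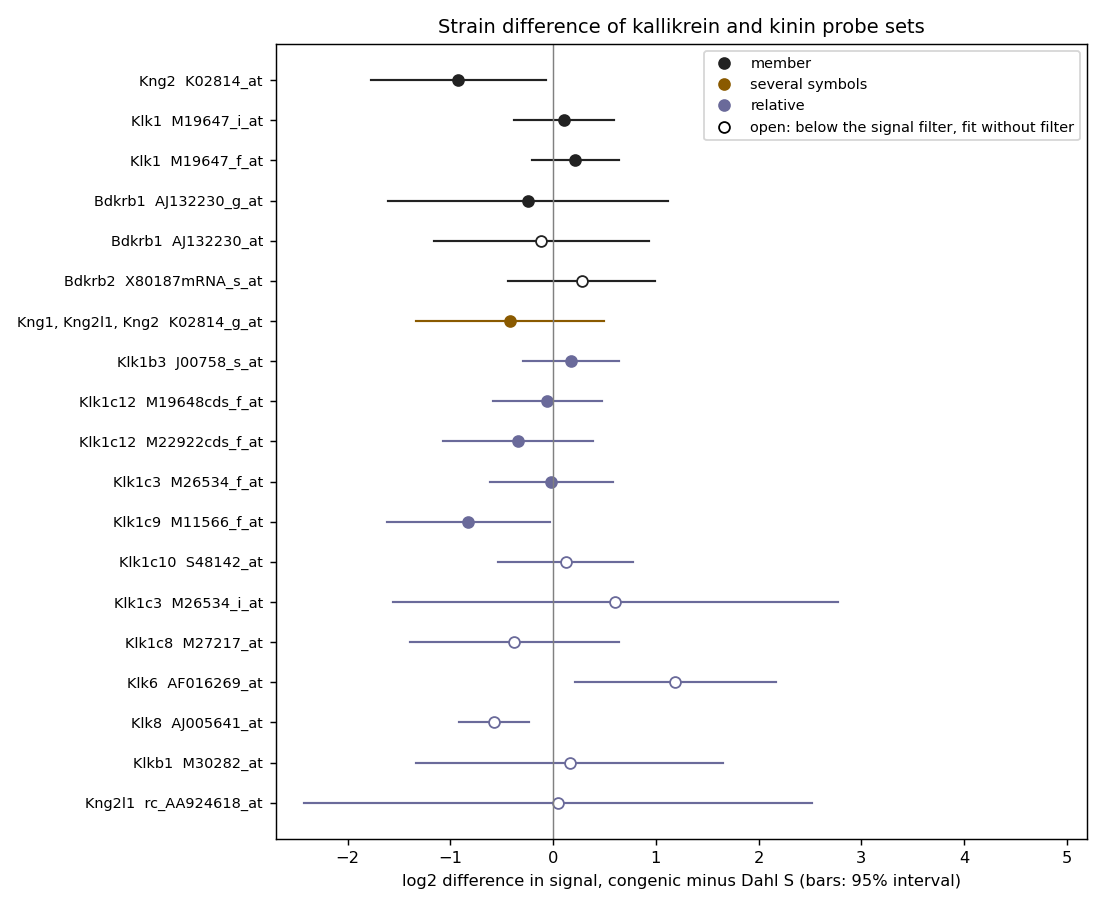
Log2 difference in signal, congenic minus Dahl S, with 95% intervals, for kallikrein and kinin probe sets. Filled points were tested and open points lay below the signal filter and come from the fit without it, and Klk1c2, at the floor in all samples, is left out. Among tested probe sets the intervals of Kng2 (-0.92) and Klk1c9 (-0.82) leave out 0, while both Klk1 probe sets straddle it. Among those below the filter the intervals of Klk6 (1.19) and Klk8 (-0.58) leave out 0. Klk8 read 2.4 and 1.6 in congenic samples 2 and 3, both raised to the floor of 3.1, so its interval is too narrow to rely on.

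Of the receptor probe sets, 1 of Bdkrb1 passed the signal filter, and the other of Bdkrb1 and that of Bdkrb2 did not. Bdkrb1, the inducible B1 receptor, had 2 probe sets from the same sequence. Probe set AJ132230_g_at read 59.6, 128.9 and 24.9 in congenic samples, against 78.6, 42.8 and 93.5 in Dahl S samples. The congenic samples spanned all Dahl S samples, with a 5.18-fold range among the congenic samples and a 2.18-fold range among the Dahl S samples. The log2 difference was -0.24 (SE 0.59, 95% interval -1.6 to 1.12, limma adjusted p = 0.9997), and it was 0.37 without congenic sample 3 and -0.82 without congenic sample 2. Its direction thus rested on single samples.

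The other Bdkrb1 probe set, AJ132230_at, was below the filter level throughout, at 11.3, 11 and 8.1 in congenic samples, against 11.9, 6.6 and 16.2 in Dahl S samples. Bdkrb2, the constitutive B2 receptor, was also below the filter level: X80187mRNA_s_at read 6.1, 3.8 and 3.1 in congenic samples, against 4.2, 2.0 and 3.1 in Dahl S samples. At these signals a strain difference in the B2 receptor was not detectable, and a low signal from 1 probe set does not show that its transcript is absent.

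**Figure D3:**
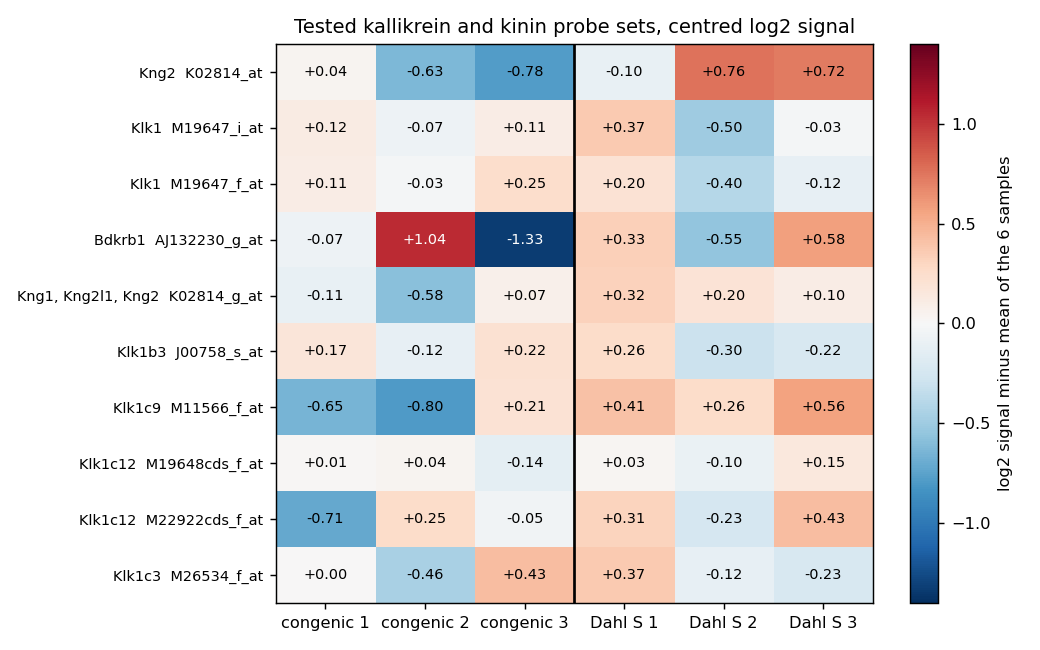
Centred log2 signal (log2 signal minus the mean of the 6 samples) of the tested kallikrein and kinin probe sets, congenic samples left of the line and Dahl S samples right of it. Both Klk1 probe sets and Klk1b3 are lowest in Dahl S sample 2, whereas Kng2 is highest there and Bdkrb1 is split within the congenic strain.

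The genes with the pattern most like each member over the 6 samples were found by the root mean square difference of centred log2 signals among 8165 other genes. For Kng2 they were Gja1, the gap junction protein connexin 43 (0.20 log2 units), Gpx2, a glutathione peroxidase (0.24), and Rrp7a, a ribosomal RNA processing factor (0.24). Gja1 read 127.1, 113.0 and 84.5 in congenic samples, against 130.8, 193.8 and 244.5 in Dahl S samples. The samples numbered 1 were nearly level, which its choice by likeness to Kng2 favoured. Its other probe sets were not tested and read 0.38 (SE 1.07) and -0.09 (SE 0.68) in the fit without the filter. For Klk1 they were the mitochondrial chaperone gene Clpb, the peroxisomal thioesterase gene Acot8 and the transferrin receptor gene Tfrc, all at 0.08. For Bdkrb1 they were Htr1d, a serotonin receptor (0.14), Chrm2, a muscarinic receptor (0.16), and the histone gene H2ac23 (0.22), each with its lowest signal in congenic sample 3 and its highest in congenic sample 2. The likeness is a description over 6 samples and carries no test.

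The connecting tubule and collecting duct, where tissue kallikrein and its neighbours in the tubule are made, held no called marker. Of 14 tested markers 10 were higher and 4 lower in congenic samples (median 0.15), limma called 0 and 0 had an unadjusted p under 0.05. Calb1, the calcium-binding protein calbindin of the connecting tubule, had 1370.3, 1359.9 and 1374.4 in congenic samples, against 1383.8, 1192.9 and 1092.1 in Dahl S samples (log2 difference 0.17, SE 0.14). A second Calb1 probe set read -0.04. Kcnj1, the potassium channel ROMK, had 755.2, 846.1 and 881.6 in congenic samples, against 603.9, 731.5 and 744.3 in Dahl S samples (log2 difference 0.26, SE 0.15), without overlap, while its other probe sets read 0.15 and -0.08. The summed signal of the list was 6695 to 7441 in congenic and 6149 to 6594 in Dahl S samples, a gap of 101 units between congenic sample 1 and Dahl S sample 2. Its part in the Klk1 values was not tested.

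Kinin-cleaving peptidases were higher in 9 and lower in 6 of 15 tested genes (median 0.21). Limma called 0 of the 15. Against 2.35% of all tested genes, 1 had an unadjusted p under 0.05, Cpd, the membrane carboxypeptidase D. It read 138.4, 189.3 and 140.7 in congenic samples, against 92.3, 98.7 and 126.4 in Dahl S samples, without overlap (log2 difference 0.56, SE 0.24, limma adjusted p = 0.9997). Dpp4, the brush border dipeptidyl peptidase, read 3336.6, 2578.2 and 3072.0 in congenic samples, against 2882.7, 2099.6 and 1611.4 in Dahl S samples (log2 difference 0.48, SE 0.22, limma adjusted p = 0.9997), and its other 2 probe sets read 0.13 and 0.17. Without Dahl S sample 3 the median of the list was -0.01, so its size depended on that sample.

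The 2 peptidases best known for ending kinin action, both chosen after their values were seen, did not pass either. Ace, angiotensin-converting enzyme, read 49.9, 78.2 and 71.2 in congenic samples, against 49.1, 27.8 and 50.5 in Dahl S samples. All congenic values except that of sample 1 lay above the 3 Dahl S values. Mme, neprilysin, read 865.8, 995.6 and 1139.3 in congenic samples, against 639.3, 755.8 and 1159.4 in Dahl S samples, where the highest value was a Dahl S one.

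Contact activation genes and inhibitors had 2 higher and 5 lower of 7 tested (median -0.09), and limma called 0, with 0 at an unadjusted p under 0.05. Serpina3n, a serpin of the acute phase, read 62.0, 75.6 and 41.1 in congenic samples, against 90.0, 61.9 and 94.1 in Dahl S samples (log2 difference -0.48, SE 0.33). Serping1, the C1 inhibitor that blocks plasma kallikrein, read 198.2, 71.3 and 76.3 in congenic samples, against 208.0, 111.9 and 96.9 in Dahl S samples, with sample 1 the highest in both strains. Prcp, a peptidase that can activate prekallikrein and was chosen after its values were seen, differed by -0.14 (SE 0.21).

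Genes of signalling below the kinin receptors had 9 higher and 8 lower of 17 tested (median 0.09), and limma called 0, with 0 at an unadjusted p under 0.05. Gnai2, an inhibitory G protein subunit, read 582.5, 777.0 and 796.3 in congenic samples, against 745.4, 879.9 and 1226.4 in Dahl S samples (log2 difference -0.39, SE 0.21). Its other 3 probe sets read -0.02, -0.10 and -0.35. With the sample number as a block its unadjusted p was under 0.05, and its adjusted p = 0.923 by limma. Gna11, a subunit that couples kinin receptors to phospholipase C, read 90.8, 103.6 and 81.7 in congenic samples, against 65.6, 93.8 and 34.9 in Dahl S samples (log2 difference 0.61, SE 0.39). Dahl S sample 3 was below the filter level of 37.7 of array type C, so the size of that difference is uncertain.

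**Figure D4:**
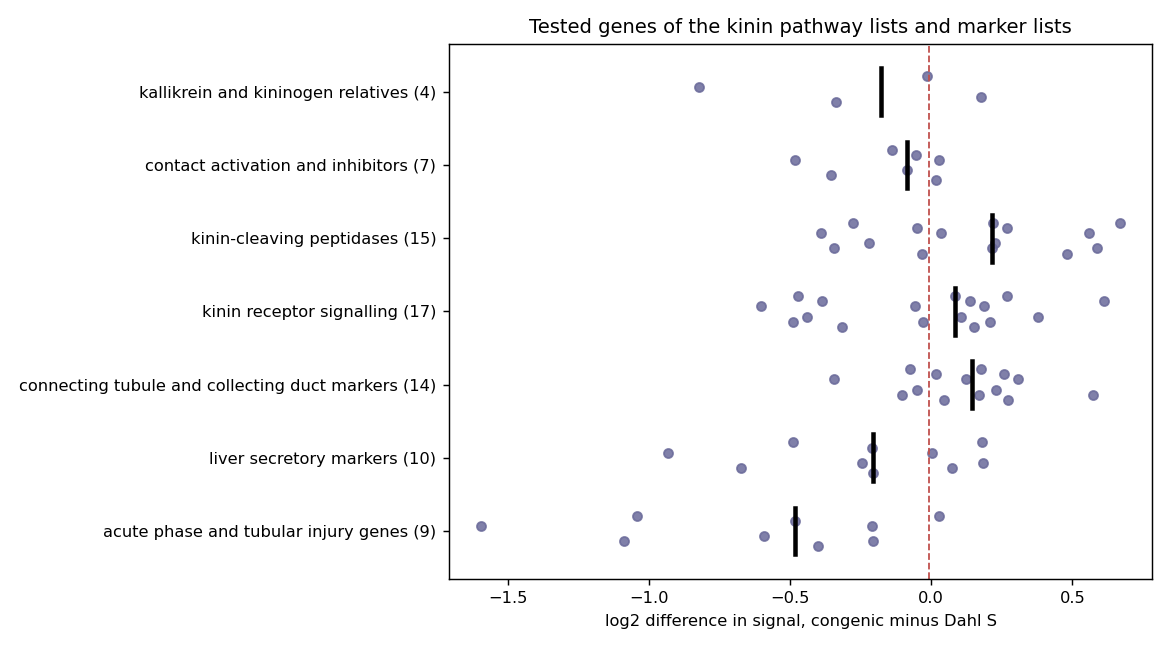
Log2 difference in signal, congenic minus Dahl S, of each tested gene in 4 pathway lists and 3 marker lists, with the number tested in brackets. Thick bars are list medians and the dashed line is the median of all 8168 tested genes (-0.01). The acute phase and tubular injury genes have the lowest median (-0.48) of the 7 lists drawn, and the 4 pathway lists lie between -0.18 and 0.21. The lists were chosen with earlier results of these data known, so this order is a description and carries no test.

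Markers of other tissues that the samples could hold, and that can express kallikreins, were also read. Of 8 tested pancreas and adrenal genes 3 were higher and 5 lower in congenic samples (median -0.03), with 0 called by limma and 0 at an unadjusted p under 0.05. Their summed signal was 886 to 1210 in congenic and 917 to 1338 in Dahl S samples. Among them Cela1, an elastase, read 251.2 to 361.2 in congenic and 300.2 to 380.9 in Dahl S samples, and Ctrb1, a chymotrypsinogen, 168.6 to 343.9 in congenic and 230.5 to 358.6 in Dahl S samples. The pancreatic carboxypeptidase Cpb1 and the amylase Amy2a3 were below the filter level in all 6 samples. Blood was read through 6 tested genes, 5 of them lower in congenic samples (median -0.44, 0 called by limma and 0 at an unadjusted p under 0.05). The alpha-globin Hba-a1 read 5917 to 11704 in congenic samples, against 7613, 9871 and 36676 in Dahl S samples 1, 2 and 3. Of the defining kidney genes 7 of 8 were higher (median 0.09), with 0 called by limma and 0 at an unadjusted p under 0.05. Without Dahl S sample 3 the Kng2 difference was -0.79, with an unadjusted p above 0.05 by limma. Whether blood has a part in the Kng2 difference was not tested.

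**Figure D5:**
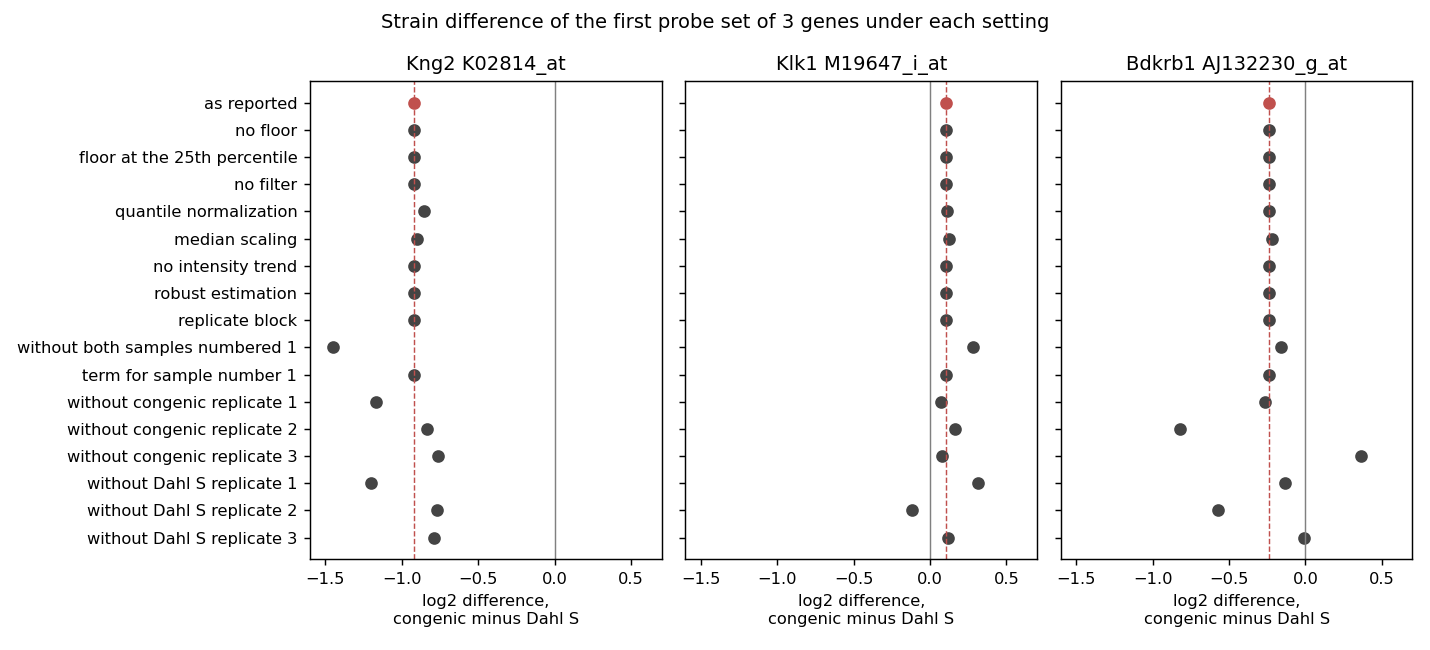
Log2 difference, congenic minus Dahl S, of the brightest probe set of Kng2, Klk1 and Bdkrb1 as reported (red) and under each other setting that applied to all 3 (black). Kng2 stayed below 0, between -1.45 and -0.76, Klk1 crossed 0 without Dahl S sample 2 (-0.12), and Bdkrb1 crossed it without congenic sample 3 (0.37).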

How the data were processed

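Kidney RNA of 3 congenic and 3 Dahl S samples was measured on 18 arrays of 3 types, per the labels. Strain and sample number were read from titles, and a sample's arrays were matched through its tag. The authors deposited 1 intensity for every probe set, unlogged. On every array the mean of the deposited intensities after trimming 2% at each end was 150.1 or 150.2, so arrays had been scaled before deposit, and main results use no other scaling. The software was not given in the sources used here. The number of arrays limits precision.

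Low intensities were set to the 10th percentile of their array type (3.1 on A, 6.8 on B, 4.9 on C) before taking log2. Leaving out 59 controls per type, 26202 probe sets remained, and the 15721 with a mean log2 signal at or above their type's 40th percentile were tested. Symbols came from the platform annotation, and 18122 of 18178 single-symbol probe sets (99.7%) matched the GRCr8 table. A gene is shown by its brightest tested probe set.

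limma 3.58.1 (R 4.3.3) was fitted once per array type, with an intensity trend in eBayes, and p-values were adjusted by Benjamini-Hochberg over all types, threshold 0.05. The procedure was tested on simulated data. Alignments used Biopython 1.88 and figures matplotlib 3.10.9.

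The members and lists were chosen with earlier results of these data known. Named genes were all member probe sets, the called genes and the 2 with the smallest p of each pathway list, the brightest gene and that with the smallest p of each marker list, the 3 genes with the pattern most like each tested member, and probe sets listing several kallikrein or kininogen symbols. Alternatives varied the floor, filter, normalization, eBayes settings, multiple testing, samples used, the sample number as a block, and averaging over probe sets of 1 gene.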

Additional observations from a re-analysis of the deposited data

How the results depend on the processing

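Under every alternative run, limma called 0 probe sets at its adjusted threshold, over all genes and among the kallikrein-kinin genes. The count over all probe sets at an unadjusted p under 0.05 (391) was 798 without the filter and 259 with the filter at the 60th percentile, settings that test more and fewer probe sets. It was 704 with a term for sample number 1, and 345 to 600 with 1 sample left out at a time, highest without congenic sample 1, and the cause was not tested. Among kallikrein-kinin probe sets that count (1) was 0 with the filter at the 60th percentile, which removes Kng2, and 0 to 1 with 1 sample left out. Kng2, Klk1c9, Cpd, Fga, Clu and Spp1 kept their direction under every alternative that tested them. For all of these but Kng2 the strains did not overlap, so leaving out samples could not reverse the direction. The filter, the eBayes settings and terms for the sample number leave the log2 difference itself unchanged. The kept direction is therefore a description and no test.

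With the sample number as a replicate block the unadjusted count was 819 over all probe sets and 0 among kallikrein-kinin probe sets (Kng2 then had an unadjusted p above 0.05 and an adjusted p = 0.923), with 0 calls. Under the block Dpp4 and Gnai2 had an unadjusted p under 0.05, which they did not have without it. Same-numbered samples 1, 2 and 3 correlated at 0.53, -0.09 and 0.16 on type A, where the kallikrein-kinin genes lie, at 0.36, 0.16 and 0.14 on type B, and at 0.49, 0.18 and 0.30 on type C. The numbers were not taken as pairs because the labels do not say what a number marks. On type A congenic sample 2 correlated best with Dahl S sample 3 (0.30), and congenic sample 3 with Dahl S sample 2 (0.24). All same-numbered pairs on types B and C were above 0.1.

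The median of kinin-cleaving peptidases (0.21) was 0.13 without the filter, 0.0911 with the filter at the 60th percentile, and -0.0053 to 0.21 with 1 sample left out, 0.12 without Dahl S sample 1. The median of the kallikrein and kininogen relatives (-0.18) was 0.0183 without the filter, 0.0829 without both samples numbered 1 and -0.32 to -0.0429 with 1 sample left out. That of kinin receptor signalling (0.0853) was -0.0316 to 0.18 with 1 sample left out, lowest without Dahl S sample 2. That of contact activation and inhibitors (-0.0857) stayed below 0 under every alternative. It was -0.0075 without both samples numbered 1, and -0.15 to -0.0278 with 1 sample left out, so its size depended on the samples used.

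Of 614 values of named probe sets under an alternative, 28 had the opposite sign, in 15 of 36 probe sets. None of these was a call. Many of the 614 could not change sign, because some settings leave the log2 difference as it was. These are the filter, the eBayes settings and the terms for sample number. The share of reversals is therefore no measure of stability. With 1 sample left out at a time, the log2 difference ranged from -0.12 to 0.31 for the first Klk1 probe set, -0.0401 to 0.27 for Clpb, -0.0571 to 0.26 for Acot8 and -0.0588 to 0.33 for Tfrc, lowest without Dahl S sample 2. It ranged from -0.82 to 0.37 for Bdkrb1, -0.73 to 0.43 for Htr1d, -0.53 to 0.59 for Chrm2 and -0.43 to 0.54 for H2ac23, highest without congenic sample 3. It ranged from -0.24 to 0.21 for Klk1c3, -0.12 to 0.0055 for Klk1c12 M19648cds_f_at, -1.11 to 0.0247 for Hba-a1 (highest without Dahl S sample 3), -0.23 to 0.0287 for Cela1 and -0.0149 to 0.28 for Slc34a1. Without both samples numbered 1 Klk1c12 M22922cds_f_at read 0.0044, Klk1c3 0.16 and Chrm2 0.0435. Median scaling gave Klk1c3 0.0081, Chrm2 0.0197 and H2ac23 0.0789, and quantile normalization gave Slc34a1 -0.0462 and Chrm2 0.0426. Averaging over probe sets of 1 gene gave Apoc3 -0.0016 and Clpb -0.0038. The cause of these changes was not tested. Klk1c2, Bdkrb2 and 1 Bdkrb1 probe set were below the filter level, while the tested Bdkrb1 probe set varied 5.18-fold among congenic samples.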
